A study of Canis lupus familiaris with 18 samples.

Results

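The genes described here are 10 members of the Notch pathway, chosen by symbol from the table of read counts per gene: the receptors NOTCH1, NOTCH2 and NOTCH3, the ligands DLL1, DLL3, JAG1 and JAG2, and the target genes HES1, HES5 and HEY1. Of these, 7 had a row among the 29993 genes of the table, namely NOTCH1 (ENSCAFG00000019633), NOTCH3 (ENSCAFG00000016107), DLL1 (ENSCAFG00000004094), JAG1 (ENSCAFG00000005627), JAG2 (ENSCAFG00000018401), HES5 (ENSCAFG00000019421) and HEY1 (ENSCAFG00000008391). NOTCH2, DLL3 and HES1 had no row under their symbol and were not analysed here. The study asked how the transcriptome of high grade oligodendroglioma (HGO), a malignant glial brain tumor, differs between dog breeds of one clade that share a raised risk of it. Bulk RNASeq was performed on 18 libraries of formalin-fixed, paraffin-embedded forebrain HGO from pet dogs, 11 labelled French bulldog and 7 others (4 boxers and 3 Boston terriers), pooled here as the comparison group. These 7 libraries are also tumor tissue, no library of normal brain was compared, and the labels give no treatment, age or genotype beyond the breed. Age, sex and tumor lobe of each dog are in the paper, which reports that the groups differ in them and could not be matched. It places all sampling before trial treatment. The part of age, sex and lobe in the differences below was not tested. Libraries are called by breed and by the number in their label, and the boxers carry the numbers 1, 3, 4 and 5 and the Boston terriers 2, 6 and 7. Library names also end in S numbers, whose runs are called series here. The French bulldogs carry S1 to S12, and the comparison group S18 to S21 or a second run of S1 to S3. What a series stands for is not given. No series holds both groups, so breed and series cannot be told apart in any difference between the groups.

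Notch receptors are cell surface proteins that are cut when a ligand of the Delta-like or Jagged family on a neighbouring cell binds them. The freed inner part enters the nucleus, joins the DNA-binding protein RBPJ and switches on repressors of the HES and HEY families. In the brain the pathway is known for keeping neural progenitors and oligodendrocyte precursors undifferentiated, and in blood vessels for the sprouting of endothelium and the coating of vessels with pericytes.

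Between 8212452 and 13169880 reads per library were counted on genes. Levels are given as CPM, counts divided by the TMM-scaled size of their library, and since gene lengths were not used they compare libraries within 1 gene and not 1 gene with another. A level of 3 counts, taken as the smallest the depth could show, was 0.223 to 0.351 CPM, and this limit covers counting error only. French bulldog 6 stood apart from the other libraries and went against its tissue label. The summed CPM of 7 oligodendrocyte lineage markers was 43.5 in it and 1127 to 6884 in the other French bulldogs, with OLIG2 and NKX2-2 at 0 counts, while the sum of 8 macrophage and microglia markers was 5105 against 42.2 to 264. CD163 alone made up 2897 CPM of this sum. The microglia marker P2RY12, at 6.87 CPM, lay within the other libraries (4.22 to 27.5). TMEM119, at 7.71 CPM (counting interval 6.05 to 9.67), could not be told from their highest, 6.48. The library names of French bulldogs 2 and 8 share a number, read here as a case number, although the study describes each library as a dog of its own. The paper lists these 2 at the same age, sex and tumor lobe. A chi-square per gene of 9.54 between these libraries was smaller than in the other 75 pairs within a group (30.8 to 339), yet above sampling noise, and they were kept as 2 libraries except where their sum is named. Whether they are 1 dog was not tested. If they are, the n of 11 French bulldogs counts that dog more than once. Because tissue was sequenced in bulk, fewer cells of a type and less RNA per cell cannot be told apart at any value below.

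NOTCH1, the receptor most tied to neural progenitors, was counted in every library with 819 to 6299 reads. In French bulldogs it ranged from 85.3 CPM in French bulldog 6 to 468 in French bulldog 1, with a median of 309. The boxers had 297, 266, 174 and 338 CPM and the Boston terriers 402, 250.1 and 277. The ranges of the 3 breeds overlapped, and without French bulldog 6 the lowest level of any library was 151 CPM, in French bulldog 9, so that the whole set spanned 3.10-fold. Its mean in French bulldogs was 309 ± 126 CPM (SD, n = 11), beside 286 ± 71.4 CPM (SD, n = 7) for boxers and Boston terriers.

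NOTCH3, a receptor known best from pericytes and vascular smooth muscle, varied more. French bulldogs ranged from 5.73 CPM in French bulldog 6 to 139 CPM in French bulldog 11, with a median of 19.4. The boxers had 34.2, 65.8, 41.7 and 62.8 CPM, and the Boston terriers 42.3, 23.1 and 50.6. French bulldogs lay on both sides of the comparison group, with 6 of them (French bulldogs 2, 4, 5, 6, 8 and 10) below every boxer and Boston terrier and 2 (French bulldogs 3 and 11) above. The coefficient of variation was 94.6% in French bulldogs, or 87.4% without French bulldog 6, against 33.3% in the comparison group.

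DLL1, a Delta-like ligand that neural progenitors present to their neighbours, ranged in French bulldogs from 0.312 CPM (3 counts) in French bulldog 6 to 129 CPM in French bulldog 2, with a median of 55.8. French bulldogs 2 and 8, the pair with a shared case number, had 129 and 118 CPM, and no other library exceeded 79.4. The boxers had 34.8, 45.8, 17.1 and 57.3 CPM and the Boston terriers 79.4, 40.7 and 30.7. Of the 11 French bulldogs, 9 were above the median of the comparison group, but the groups overlapped at both ends. The mean was 62.5 ± 37.3 CPM (SD, n = 11) against 43.7 ± 20.1 (SD, n = 7).

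JAG1, a Jagged ligand known from endothelium and vessel walls among other tissues, ranged from 10.7 CPM in French bulldog 6 to 56.1 CPM in French bulldog 3, with a median of 21.6. The boxers had 22.6, 44.4, 28.6 and 33.0 CPM and the Boston terriers 19.6, 17.7 and 38.9. French bulldogs 2, 4, 5, 6 and 8 were below every dog of the comparison group, and French bulldog 3 alone was above all of them. JAG2, the second Jagged ligand, ranged from 1.64 CPM in French bulldog 5 to 38.5 CPM in French bulldog 8, with a median of 8.67. French bulldogs 2 and 8 had 37.9 and 38.5 CPM, apart from the other libraries, none of which exceeded 21.4. The boxers had 20.2, 12.2, 21.1 and 13.6 CPM of JAG2, each more than any of the 3 Boston terriers, with 6.68, 11.3 and 6.96. The French bulldogs spanned the levels of both breeds.

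HES5, a repressor that Notch induces in neural progenitors, was barely detected, with 0 to 22 counts per library. French bulldog 6 and boxer 4 had 0 counts and French bulldog 8 and Boston terriers 2 and 7 had 2 counts, all below the limit of 3 counts that the depth allows. The boxers had 1.00, 2.01, 0 and 0.540 CPM, the Boston terriers 0.188, 0.502 and 0.166, and French bulldogs had a median of 0.586 and a highest value of 1.95 CPM. HEY1, a related repressor that is also induced by Notch, was well counted. French bulldogs ranged from 2.92 CPM in French bulldog 6 to 58.3 CPM in French bulldog 4, with a median of 36.6. The boxers had 20.3, 52.1, 20.5 and 27.0 CPM and the Boston terriers 33.6, 20.2 and 27.2. Apart from French bulldog 6, every French bulldog had at least 20.5 CPM of HEY1, and 9 of 11 were above the median of the comparison group, in which boxer 3 was the highest.

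**Figure D1:**
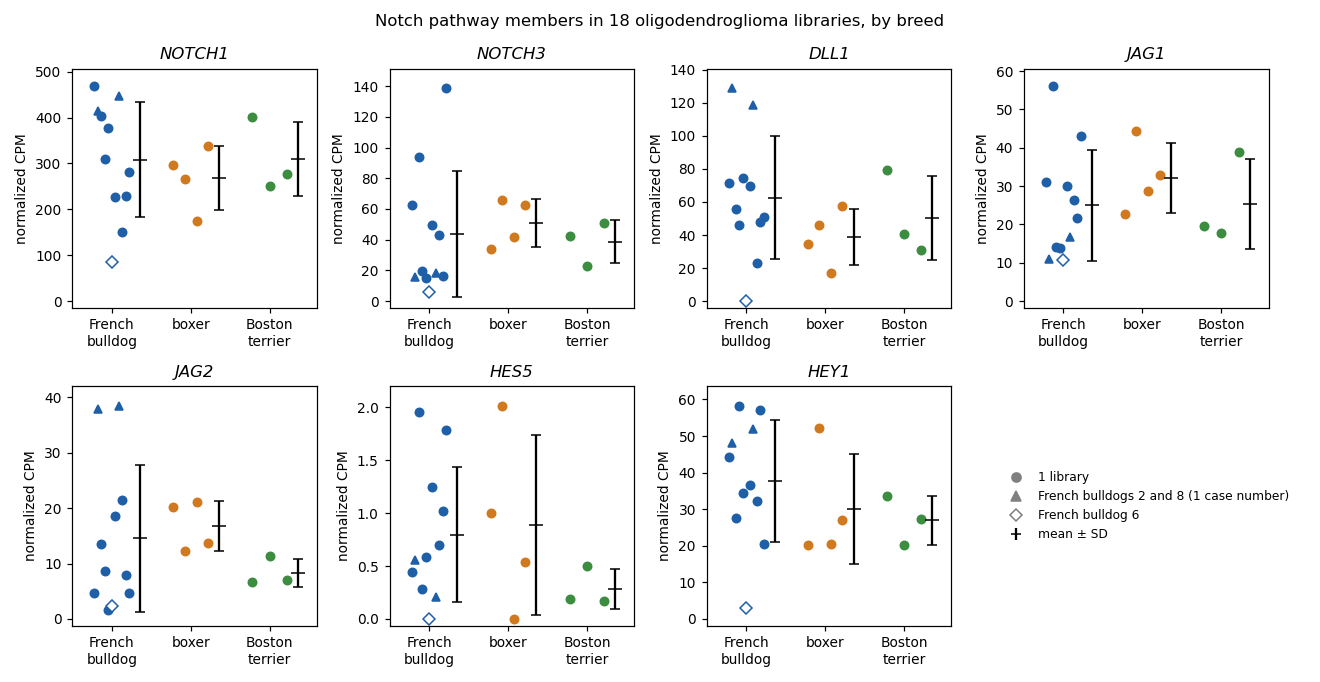
Normalized CPM (y axis, linear, TMM-scaled) of the 7 measured members in each of the 18 libraries, by breed (x axis), with a bar for the mean and SD of the breed. French bulldog 6 (open diamond) is the lowest library for NOTCH1, NOTCH3, DLL1, JAG1 and HEY1, French bulldogs 2 and 8 (triangles) are the 2 highest for DLL1 and JAG2, and the breeds overlap in every panel except for JAG2 in boxers and Boston terriers.

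No difference between French bulldogs and the comparison group passed the test for any of the 6 members tested. The test was edgeR's quasi-likelihood F test over 16495 genes, in which the smallest Benjamini-Hochberg adjusted p of a member was 0.731. HES5 was left out by the filter on low counts. At an adjusted p under 0.05 the test called 0 members and 0.00606% of all genes, that is 1 gene, and DESeq2 also called 0 members and 0.213% of its genes. At an unadjusted p under 0.05 it was 0 of 6 members against 10.6% of all genes. The groups overlapped for all 6, as they did for all but 0.0546% of the genes tested.

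The log2 fold changes of French bulldogs over the comparison group were positive for 4 members and negative for 2, with a median of 0.13 beside 0.04 over all genes. In limma-voom 1 was positive and 5 were negative, and DLL1, the largest in edgeR, was -0.030. In edgeR that of DLL1 was 0.52 (SE 0.55, 95% interval -0.65 to 1.68, edgeR adjusted p = 0.765). HEY1 had 0.39 (SE 0.38, interval -0.40 to 1.18), JAG2 0.14 (SE 0.54, interval from below 0 up to 1.28) and NOTCH1 0.11 (SE 0.28, interval -0.48 to 0.69). With French bulldogs 2 and 8 summed that of JAG2 was -0.10. NOTCH3 had -0.07 (SE 0.50, interval -1.12 to 0.98) and JAG1 -0.23 (SE 0.33, interval -0.91 to 0.45). The value of HEY1 was 0.20 in limma-voom. Over the 14 libraries numbered 1 to 7 it was 0.33, and 0.13 with the replicate number as a block, although a number shared by the 2 groups belongs to different dogs. The intervals of NOTCH1 and JAG1 were the narrowest and leave out a 2-fold difference in both directions, while those of the other 4 members do not. The dispersion of DLL1, the spread between libraries that the model estimates, was higher than in 81.7% of all genes, and that of NOTCH1 higher than in 44.1%.

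Leaving out French bulldog 6 brought 2 of the 6 members below an unadjusted p of 0.05, beside 10.8% of all genes in that fit, and none below an adjusted p of 0.05. The log2 fold change of HEY1 became 0.54 (p = 0.0327, edgeR adjusted p = 0.435) and that of DLL1 0.68 (p = 0.0481, edgeR adjusted p = 0.454). With French bulldogs 2 and 8 also summed to 1 dog, an alternative chosen after the data were seen, 0 members and 8.51% of all genes were below an unadjusted p of 0.05. HEY1 then had 0.49 (p = 0.0630, edgeR adjusted p = 0.613) and DLL1 0.52 (p = 0.114, edgeR adjusted p = 0.671). NOTCH3 changed sign under both, to 0.09 and 0.15, and no member passed an adjusted p of 0.05 under any alternative run. Other single libraries also moved the smaller values, that of JAG1 to -0.42 without French bulldog 3 and -0.099 without boxer 3, that of NOTCH1 to 0.032 without French bulldog 1 and 0.24 without French bulldog 6, that of NOTCH3 to -0.43 without French bulldog 11 and that of HEY1 to 0.60 without boxer 3.

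When the 3 breeds were fitted as groups of their own, over 17934 genes, all 7 measured members could be tested, and none reached an unadjusted p of 0.05 in any of the 3 contrasts. At that limit French bulldogs and boxers differed in 8.26% of all genes, French bulldogs and Boston terriers in 3.84%, and boxers and Boston terriers in 2.12%. By adjusted p in edgeR 0 members passed in each contrast, beside 0, 1 (0.00558%) and 0 of all genes, and DESeq2 also called 0 members in each. The largest difference of a member was that of HES5 between boxers and Boston terriers, with 1.60 on the log2 scale (SE 1.15, interval -0.82 to 4.02), a gene with at most 6 counts in any Boston terrier. It was 0.81 without boxer 3 and 2.25 without Boston terrier 6. JAG2, which like 7.25% of all genes did not overlap between these breeds, had 1.01 (SE 0.87, interval -0.82 to 2.84, edgeR adjusted p = 1.00). French bulldogs minus boxers gave 0.69 for DLL1 (interval -0.79 to 2.17), which was 0.46 without boxer 4 and 0.94 without boxer 5, and -0.36 for JAG1 (interval -1.19 to 0.46), the latter -0.56 without French bulldog 3 and -0.17 without boxer 3. In the order of mean levels, DLL1 and HEY1 were highest in French bulldogs, NOTCH3, JAG1, JAG2 and HES5 were highest in boxers, and NOTCH1 was 309 CPM in both French bulldogs and Boston terriers, but no neighbours in these orders differed beyond their spread in the edgeR test.

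French bulldog 6 held the lowest level of the 18 libraries for 5 of the 6 tested members, whereas it was the lowest for 29.9% of all genes tested and the highest for 20.8%. DLL1 was the most extreme, with 3 counts against a median of 51.1 CPM in the other 17 libraries, a ratio of 163 with a counting interval of 55.9 to 793. HEY1 (28 counts) was 11.5-fold below the median of the others, NOTCH3 (55 counts) 7.39-fold, JAG2 (22 counts) 5.35-fold, NOTCH1 (819 counts) 3.49-fold and JAG1 (103 counts) 2.47-fold. JAG1, at 10.7 CPM, was next to French bulldog 2 at 10.9 CPM, and JAG2 was lower still in French bulldog 5. Markers of several cell types moved with these values. The oligodendrocyte lineage sum was the 43.5 CPM given above, carried by PDGFRA with 406 counts, while the other 6 markers had 0 to 5 counts. Summed astrocyte markers were at 22.5 CPM against 515 to 5385 in the other French bulldogs, and neuron markers at 0.937 against 60.6 to 1319. T cell markers were at 96.2 CPM against 0.771 to 8.62, beside the macrophage sum given above. The part of these cell types in the member levels was not tested.

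Within a library, the share of 1 receptor or ligand in the sum of the measured members of its kind needs no normalization. The ligand counts are those of DLL1, JAG1 and JAG2, without DLL3, which had no row under its symbol, and without DLL4, which is no member. Of the summed NOTCH1 and NOTCH3 counts, NOTCH1 held 87.8% ± 9.63 (SD, n = 11) in French bulldogs, beside 85.9% ± 4.69 (SD, n = 7) in boxers and Boston terriers. These shares also follow transcript length and compare only libraries. The lowest was 67.0% in French bulldog 11 and the highest 96.4% in French bulldog 2, and the comparison group lay between 80.2% and 91.5%. Of the ligand counts, DLL1 held 55.4% ± 22.4 (SD, n = 11) against 49.1% ± 15.7 (SD, n = 7), JAG1 30.9% ± 20.8 against 34.6% ± 11.5, and JAG2 13.7% ± 8.67 against 16.3% ± 9.21. For none of the 4 shares did the groups differ by the exact permutation of the group labels (31824 arrangements, two-sided p = 0.540 to 0.693, Benjamini-Hochberg adjusted p = 0.693 for each). Single libraries moved these differences. That of the DLL1 share, 6.23 percentage points, was 11.5 without French bulldog 6 (exact permutation p = 0.140) and 2.31 without boxer 4, and that of JAG1, -3.65 points, was -8.61 without French bulldog 6 (exact permutation p = 0.185) and -0.94 without Boston terrier 7. That of JAG2, -2.58 points, was -0.039 without boxer 4 and -4.25 without Boston terrier 2, and that of NOTCH1, 1.88 points, was 3.96 without French bulldog 11 and 0.92 without boxer 3. In French bulldog 6 JAG1 made up 80.5% of the ligand counts and DLL1 2.34%. In the other 17 libraries JAG1 made up 6.15% to 50.8% and DLL1 25.6% to 82.7%. The share of JAG2 was highest in boxer 4, at 31.6%, and lowest in French bulldog 5, at 1.83%.

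**Figure D2:**
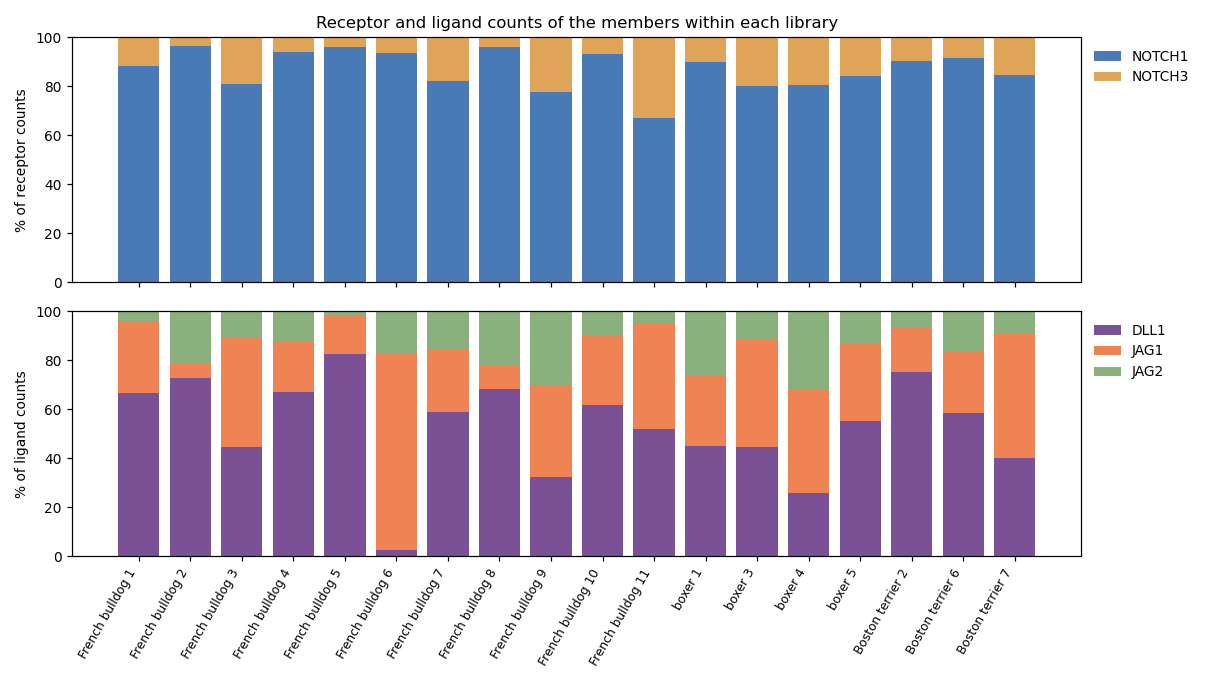
Share (y axis, %) of NOTCH1 and NOTCH3 in their summed counts (upper panel) and of DLL1, JAG1 and JAG2 in theirs (lower panel), 1 stacked bar for each of the 18 libraries. NOTCH1 makes up 67.0% to 96.4% in every library, and French bulldog 6 stands out by a DLL1 share of 2.34%.

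How the members varied together was examined over 16 dogs, with French bulldog 6 left out and French bulldogs 2 and 8 summed, on log2 CPM with a prior count of 2. Of 15 pairs of members, 2 passed a Benjamini-Hochberg adjusted p of 0.05 by 100000 permutations. NOTCH3 and JAG1 had a Pearson r of 0.90 and a Spearman rho of 0.93 (permutation p = 1e-05 for each, the smallest these permutations can give, adjusted p = 0.00015 for each). Within the groups r was 0.93 over the 9 French bulldogs (adjusted permutation p = 0.00675) and 0.86 over the 7 boxers and Boston terriers, which did not pass (adjusted permutation p = 0.107). It was 0.89 without the 2 dogs farthest from the median of NOTCH3, and 0.88 to 0.93 over the fits that leave out 1 dog. The other pair was NOTCH1 and DLL1, with r of 0.80 and rho of 0.73 (permutation p = 0.00025 and 0.00201, adjusted p = 0.00187 and 0.0151). Its r was 0.78 over French bulldogs and 0.92 over the comparison group, neither past the threshold (adjusted permutation p = 0.0685 and 0.107), 0.62 without the 2 dogs farthest from the median of NOTCH1, and 0.75 to 0.87 over the fits that leave out 1 dog.

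The remaining 13 pairs did not pass. NOTCH1 and NOTCH3 had an r of 0.00, JAG1 and JAG2 0.06, and DLL1 and JAG1 -0.27. HEY1 went with neither receptor, with r of 0.24 for NOTCH1 and -0.40 for NOTCH3, and its r with DLL1 was 0.46 (permutation p = 0.0713, adjusted p = 0.357). Over all 18 libraries 4 pairs passed by Pearson r and 2 by Spearman rho, the former being the same 2 and those of HEY1 with DLL1 (r of 0.88) and with NOTCH1 (r of 0.69). Both added pairs rest on few libraries, since r fell to as little as 0.51 and 0.29 when 1 library was left out.

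**Figure D3:**
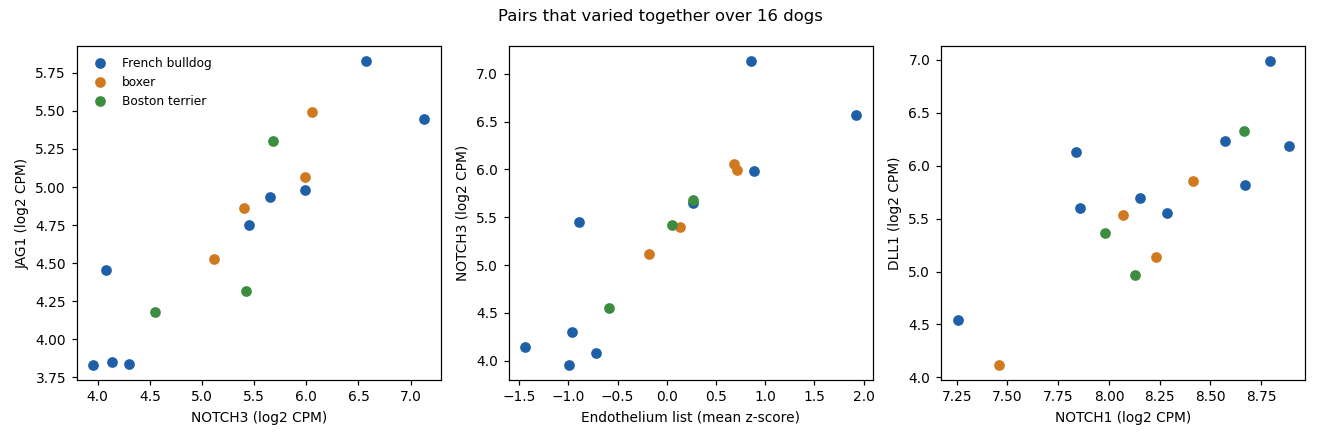
NOTCH3 against JAG1 (left, both log2 CPM), the endothelium list (mean z-score) against NOTCH3 (middle) and NOTCH1 against DLL1 (right), 1 point for each of 16 dogs, coloured by breed, with axes that do not start at 0. The Pearson r over all 16 is 0.90, 0.88 and 0.80.

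The members were then set against 8 lists of cell marker genes, each scored in the same 16 dogs as the mean z-score of its genes. Of 48 relations, 8 passed an adjusted p of 0.05. JAG1 and NOTCH3 went with the endothelium list (PECAM1, VWF, CDH5, KDR, TIE1 and TEK), with r of 0.89 and 0.88 and rho of 0.89 and 0.90 (permutation p at most 2e-05, adjusted p = 0.00024 for each r and 0.00048 for each rho). Both also went with the list of pericytes and smooth muscle, with r of 0.78 for JAG1 and 0.69 for NOTCH3, and with that of macrophages and microglia, with r of 0.78 and 0.79 (adjusted permutation p of r 0.00384 to 0.0214). The 3 lists varied with each other, with r of 0.72 between endothelium and pericytes, 0.73 between endothelium and macrophages and 0.62 between pericytes and macrophages, and whether the relations of JAG1 and NOTCH3 with each list are separate was not tested.

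The relations with endothelium were positive in both groups, but not all passed within 1 group. JAG1 had an r of 0.92 in the 9 French bulldogs and 0.85 in the 7 other dogs, and NOTCH3 0.87 and 0.99. The adjusted permutation p of r was 0.0118 and 0.275 for JAG1 and 0.0548 and 0.0446 for NOTCH3, and by rho only JAG1 in French bulldogs passed (adjusted permutation p = 0.0355). Without the 2 dogs farthest from the median of the member they were 0.85 for JAG1 and 0.90 for NOTCH3. With pericytes and smooth muscle the values differed in size between the groups, at 0.89 over French bulldogs and 0.05 over the others for NOTCH3 and 0.92 and 0.46 for JAG1, and this difference was not tested. The list of macrophages and microglia gave r of 0.81 and 0.84 for NOTCH3 and 0.78 and 0.84 for JAG1.

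NOTCH1 was the only other member with a relation that passed. It went up with the list of cycling cells (MKI67, TOP2A, CDK1, BUB1 and AURKB), with r of 0.67 and rho of 0.69 (permutation p = 0.00512 and 0.00464, adjusted p = 0.0307 and 0.0318), and down with the list of neurons, with r of -0.74 and rho of -0.75 (permutation p = 0.00108 and 0.00123, adjusted p = 0.00864 and 0.0118). The lists of cycling cells and neurons varied against each other (r of -0.59), and whether these relations of NOTCH1 are separate was not tested. For cycling cells r was 0.80 over French bulldogs and 0.30 over the others, and for neurons it was -0.80 and -0.61. Without the 2 dogs farthest from the median of NOTCH1, these were 0.61 and -0.61. No relation of DLL1, HEY1 or JAG2 passed, and the largest in size were those of DLL1 and HEY1 with pericytes and smooth muscle, with r of -0.58 and -0.56 (adjusted permutation p = 0.0976 and 0.116). The oligodendrocyte lineage list, which is that of the tumor cells, had r of 0.49 with NOTCH1, 0.40 with DLL1 and 0.21 with HEY1 over the 16 dogs, none past the threshold. Over all 18 libraries these were 0.75, 0.93 and 0.85, and fell as low as 0.47, 0.48 and 0.30 when 1 library was left out. The list of T cells was not scored, as 1 of its 5 markers passed the filter on low counts.

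**Figure D4:**
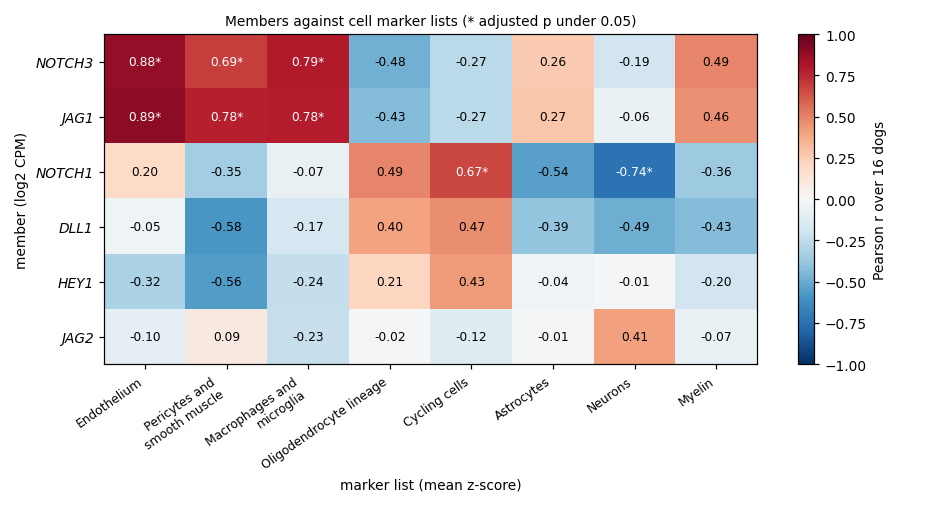
Pearson r over 16 dogs (number and colour, from -1 in blue to 1 in red) of the log2 CPM of the 6 tested members (rows) with the mean z-score of 8 marker lists (columns), with a star where the permutation p adjusted over the 48 relations is under 0.05. NOTCH3 and JAG1 share high values with endothelium, pericytes and smooth muscle, and macrophages and microglia, while NOTCH1 is positive with cycling cells and negative with neurons.

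The genes whose levels were most like each member over the 16 dogs were taken from 11583 tested genes with a symbol, by Pearson r and without a test. For JAG1 they were COL12A1, which encodes a collagen, FKBP9 and ENG, the endothelial co-receptor endoglin, with r of 0.95, 0.95 and 0.94. For NOTCH3 they were TBC1D1, RREB1 and WWTR1, the transcriptional co-activator TAZ, with 0.94, 0.93 and 0.93. NOTCH1 and DLL1 had the same first gene, BAZ1A, a subunit of chromatin remodelling complexes, with r of 0.93 and 0.85. NOTCH1 was next most like KIF14, a mitotic kinesin, and THOC2, of the mRNA export machinery, with 0.90 and 0.89, and DLL1 most like KRTCAP2 and SLC35C2, with 0.85 and 0.84. JAG2 was most like CIB2, STARD10 and PPP1R26, with 0.90, 0.88 and 0.88. HEY1 had the lowest likeness of all, with 0.80 for FDPS, an enzyme of isoprenoid and cholesterol synthesis, 0.80 for C7H1orf53 and 0.77 for CACYBP.

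The rest of the pathway was read from a list of 66 genes in 10 role groups, of which 57 had a row and 51 were tested. None differed between French bulldogs and the comparison group at an adjusted p under 0.05 in edgeR or DESeq2. At an unadjusted p under 0.05 the edgeR test had 5 higher and 1 lower in French bulldogs, beside 7.02% and 3.55% of all genes, and the median log2 fold change was -0.01 over the list and 0.04 over all genes. Leaving out French bulldog 6 also gave 5 and 1, with DTX2 in place of KAT2A, and summing French bulldogs 2 and 8 as well gave 3 and 1. The counts were 1 and 0 against the comparison libraries of series S18 to S21 (ITCH), 2 and 1 against those of series S1 to S3, and 4 and 0 in limma-voom. The count over all genes at that limit went from 1744 to 849, 767 and 1525 in the same fits, in that order.

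Of the 5, 4 are described here. ADAM10, which cuts the receptor outside the cell, averaged 97.2 CPM in French bulldogs, beside 72.1 in boxers and Boston terriers, a log2 difference of 0.43 (SE 0.17, p = 0.0176, edgeR adjusted p = 0.433), with 10 of 11 French bulldogs above the comparison median. POFUT1, which adds the fucose that the receptor needs to bind ligand, had 54.6 and 40.1 CPM (log2 difference 0.45, p = 0.0327, edgeR adjusted p = 0.445).

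HDAC2, a histone deacetylase of the co-repressor complexes, averaged 97.5 CPM in French bulldogs, beside 56.6 in the others, the largest log2 difference of the 51, 0.78 (SE 0.26, p = 0.00689, edgeR adjusted p = 0.433), and all 11 French bulldogs were above the comparison median. ITCH, a ubiquitin ligase that marks the receptor for breakdown, had 138 and 101 CPM (log2 difference 0.45, SE 0.15, p = 0.00651, edgeR adjusted p = 0.433). KAT2A, a histone acetyltransferase, was the 1 on the lower side, with 34.6 and 45.4 CPM (log2 difference -0.39, p = 0.0438, edgeR adjusted p = 0.462). Against series S18 to S21 the p was 0.0868 for ADAM10, 0.0955 for HDAC2, 0.20 for POFUT1 and 0.119 for KAT2A, and against series S1 to S3 it was 0.0780 for ADAM10 and 0.0664 for ITCH (edgeR, unadjusted). POFUT1 had p of 0.0578 with French bulldogs 2 and 8 summed (0.0818 also without French bulldog 6) and 0.0608 in limma-voom, and KAT2A 0.0592 and 0.0865. With 1 library left out at a time the highest p was 0.0659 for POFUT1 and 0.215 for KAT2A, and it was 0.0406 for ADAM10. Marker lists were read in the same comparison, and none of their markers passed an adjusted p of 0.05 in edgeR. Of the 5 markers of cycling cells 3 were higher in French bulldogs at an unadjusted p under 0.05, beside 7.02% of all genes, and 0 passed an adjusted p in edgeR. Their median log2 fold change was 1.34. Their summed level was 59.1 to 1055 CPM in French bulldogs other than 6, 1011 in French bulldog 6 and 83.9 to 376 in the comparison group. Without French bulldog 6, a look added after the data were seen, 1 of 5 was under that p, beside 10.8% of all genes, with a median of 1.07. With French bulldogs 2 and 8 also summed it was 0 of 5, beside 8.51% of all genes, with a median of 0.83. Of the 8 markers of macrophages and microglia 4 were higher at that p, beside the same 7.02% of all genes, with a median of 1.81. Without French bulldog 6 this was 0 of 8 and 0.22, and with French bulldogs 2 and 8 also summed 1 of 8 and 0.27. The summed level of these markers in the comparison group was 56.5 to 143 CPM. Without French bulldog 6 the log2 difference was 0.86 for HDAC2, 0.38 for ADAM10, 0.49 for ITCH and 0.44 for POFUT1. No marker of the vascular lists passed an unadjusted p of 0.05, with a median log2 fold change of -0.58 for pericytes and smooth muscle and -0.16 for endothelium. Their median summed levels were 157 CPM in French bulldogs other than 6 against 228 for pericytes and smooth muscle, and 217 against 347 for endothelium. Over the 16 dogs ITCH had an r of -0.76 with the endothelium list (adjusted permutation p = 0.00694) and POFUT1 of -0.53 (adjusted permutation p = 0.161). The part of these cell types in the differences was not tested. HDAC2 and KAT2A act with many other factors and are not particular to Notch.

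In the other role groups described here no gene reached an unadjusted p of 0.05 in the main edgeR fit. The smallest p of each was that of NOTCH4, the endothelial receptor, with a log2 difference of -0.67 (SE 0.43, interval -1.56 to 0.23), of EGFL7, a vessel-derived ligand-like protein, with -0.39, of MIB2, a ubiquitin ligase of the ligands, with -0.28, and of NRARP, a target that feeds back on the pathway, with -0.40. NOTCH4 did reach that limit without French bulldog 3, and the ligand-like DLK1 without the filter on low counts. All 4 ligand ubiquitin ligases had values below 0, from -0.30 to -0.11, none past the test, beside 7632 of all 16495 genes below 0. In the 3-breed fit 1 of the 4 was above 0 against boxers and 1 against Boston terriers.

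**Figure D5:**
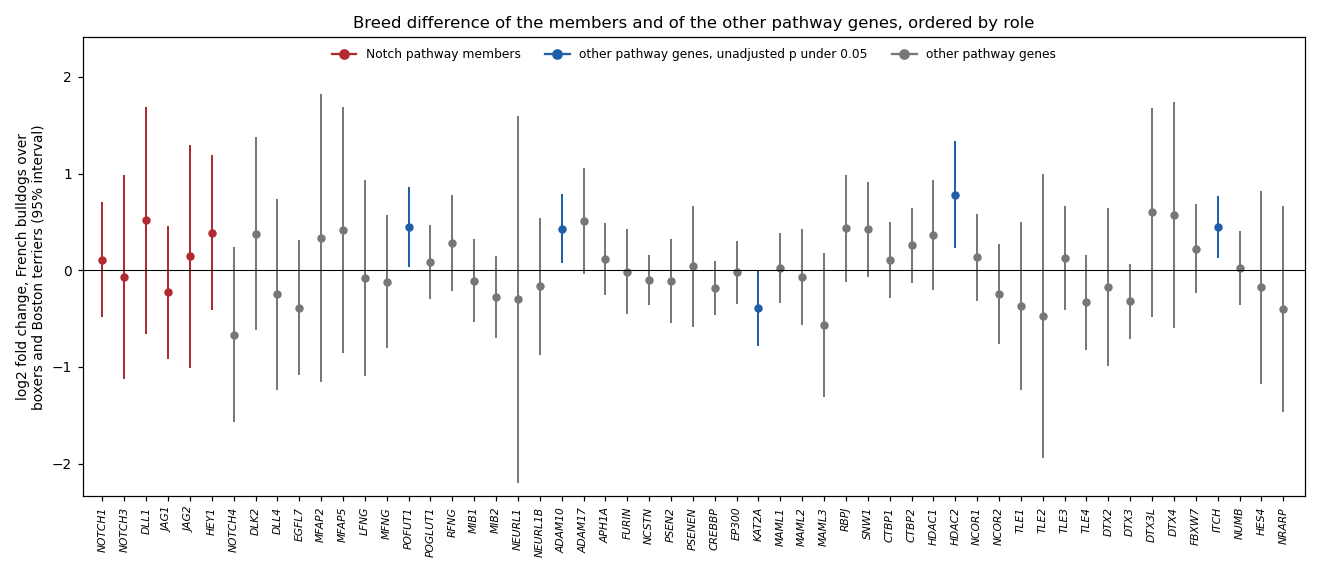
Log2 fold change of French bulldogs over boxers and Boston terriers (y axis, point) with its 95% interval from edgeR (line) for the 6 tested members (red, left) and 49 of the 51 other pathway genes tested in the order of their role groups (x axis), those with an unadjusted p under 0.05 in blue. Every member's interval crosses 0, and none of the 49 genes drawn passes an adjusted p of 0.05.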

How the data were processed

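RNA of formalin-fixed tumor scrolls was made into stranded, ribosome-depleted libraries. Per the labels and methods, the authors trimmed paired-end reads with Trimmomatic 0.33, mapped them to the dog genome canFam6 with HISAT2 2.1.0 and used featureCounts to assign reads to genes. The deposited values are raw counts of reads, with no normalization. Strand and multi-mapping settings are not given in the sources used here, so reads of overlapping or antisense genes may be shared. Groups came from the labels. The study describes the libraries as separate dogs. French bulldogs 2 and 8 share a number in their library names, read here as a case number.

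The whole table was fitted with edgeR 4.0.16 (R 4.3.3): TMM normalization, filterByExpr, robust quasi-likelihood F test, two-sided, Benjamini-Hochberg adjustment over all genes tested, threshold 0.05. A second fit held the 3 breeds. In simulated counts the first fit recovered 22.1% of genes changed 2-fold, 74.5% of those changed 4-fold and 91.8% of those changed 8-fold. Alternatives were DESeq2 1.42.0 (the test of the study), limma-voom (limma 3.58.1), other normalizations, no filter, libraries left out, summed or split by library series, and a block.

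Named genes are all members, in each role group the pathway gene of smallest p and all with an unadjusted p under 0.05, and the 3 genes most like each member. Results for some items are not reported here, though counts over the list include them. The members, lists and tests were chosen with earlier results of these data known. Since 3 members had no row, 4 shares were computed in place of the 7 planned. No sequence or position is given, as no genome of the build was used here. Python 3.11.15, numpy 2.4.6, pandas 2.3.3, scipy 1.17.1 and matplotlib 3.10.9 were used.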

Additional observations from a re-analysis of the deposited data

Results flagged for a closer look

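Among 22 groups of member levels and shares tested for a single library far from the others, 1 was found: HEY1 had 52.1 CPM in boxer 3, the highest of the 7 dogs of the comparison group, with the next at 33.6 CPM. Chance alone flags about 1 in 20 groups. Leaving out boxer 3 gave a log2 fold change of HEY1 of 0.60, against 0.39 with it.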

How the results depend on the processing

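No member passed an adjusted p of 0.05 in any fit. In the comparison of the 2 groups, 1 gene passed in edgeR, 58 in DESeq2, 2 with upper quartile normalization, 2 in limma-voom, and 0 with French bulldogs 2 and 8 summed (also without French bulldog 6), against the comparison libraries of series S18 to S21 or of series S1 to S3, and 0 to 7 when 1 library was left out (0 without French bulldog 1, 7 without French bulldog 9). At an unadjusted p, 1744 genes became 3153 without the filter, 849 against S18 to S21 and 767 against S1 to S3, and members at that limit ranged from 0 to 2, the latter without French bulldog 6. The replicate block over the numbers 1 to 7 gave 0 and 967 genes, and the same 14 libraries without it 5 and 1726. Of the rest of the pathway list, 1 gene was higher and 0 lower with the block at an unadjusted p (HDAC2), against 5 and 0 without it. The numbers do not pair the libraries, since same-numbered deviations correlated from -0.50 to 0.21 and 2 of 7 libraries matched their own number best.

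The signs of HEY1 and JAG1 held in every fit of the 2 groups, and DLL1 (0.52) and NOTCH1 turned in limma-voom alone. JAG2 (0.14) became -0.33 in limma-voom, -0.10 with 2 and 8 summed, 0.026 also without 6, -0.048 against S18 to S21, -0.73 with the block and -0.076 over its libraries without it, and -0.12 to 0.32 with 1 library left out. NOTCH3 (-0.07) became 0.015 with 2 and 8 summed, 0.15 also without 6, -0.75 with the block, -0.29 over its libraries without it, -0.53 in limma-voom, and -0.43 to 0.087 with 1 left out. JAG1 (-0.23) became -0.073 with 2 and 8 summed and 6 left out, -0.49 with the block and -0.42 to -0.099 with 1 left out. HEY1 (0.39) became 0.13 with the block, 0.33 over its libraries without it and 0.20 in limma-voom. In limma-voom DLL1 was -0.030 and NOTCH1 -0.00051. The cause of these shifts was not tested.

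In the 3-breed fit, French bulldogs minus boxers had 0 genes at an adjusted p, 23 in DESeq2 and 0 to 2 with 1 library left out, and at an unadjusted p 1481, 2285 in DESeq2 and 2312 without the filter. HES5 ran from -0.53 to 0.63. French bulldogs minus Boston terriers had 1 gene, 8 in DESeq2 and 0 to 2 with 1 left out, and at an unadjusted p 689, 1246 in DESeq2, 1156 without the filter and 378 to 916 with 1 left out. NOTCH1 (-0.0043) became 0.00016 in DESeq2, 0.00087 with its size factors, 0.0014 without the filter and -0.14 to 0.23 with 1 left out, JAG1 -0.24 to 0.42 and NOTCH3 -0.18 to 0.41. Boxers minus Boston terriers had 381 at an unadjusted p, 791 in DESeq2, 905 without the filter and 205 to 636 with 1 left out. There DLL1 ran from -0.64 to 0.11, HES5 from 0.81 to 2.25, HEY1 from -0.26 to 0.33 and NOTCH1 from -0.34 to 0.024.

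Member pairs past the threshold were 2, 4 over all 18 libraries, 1 over French bulldogs alone and 0 over the other 7 dogs, and relations with marker lists 8, 14, 3 and 1 by Pearson r, the last 2 over fewer dogs. By Spearman rho the pairs were 2, 2, 1 and 0 and the relations 8, 4, 2 and 0. With 1 library left out the differences in shares were 2.31 to 11.5 points for DLL1, -8.61 to -0.94 for JAG1, -4.25 to -0.039 for JAG2 and 0.92 to 3.96 for NOTCH1, none past the threshold. The alternatives for lists were chosen after the data were seen, as was the fit over the numbers 1 to 7 without a block. HES5 levels rest on at most 22 counts, and the simulated recovery of 22.1% at 2-fold limits what the absence of a call shows.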

Other observations

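The rest of the pathway list was also set against the endothelium list over the same 16 dogs, an addition made after the data were seen. Of 51 genes, 6 passed a permutation p adjusted over the 51, a count for which the share over all genes was not computed, and the median r with the endothelium list was 0.01. The 5 that went up with it were DLL4, the Delta-like ligand of sprouting vessels, with r of 0.86 and rho of 0.79 (permutation p = 1e-05 and 0.00039, adjusted p = 0.00051 and 0.00581), EGFL7 with 0.81 and 0.82, the target gene HES4 with 0.80 and 0.82, the endothelial receptor NOTCH4 with 0.79 and 0.78, and NRARP with 0.71 and 0.78 (adjusted permutation p of r 0.00281 to 0.0181). ITCH went down, with r of -0.76 and rho of -0.71 (permutation p = 0.00068 and 0.00262, adjusted p = 0.00694 and 0.0223). The other marker lists were not run for these genes. Since the endothelium list varied with those of macrophages (r of 0.73) and pericytes (r of 0.72), whether a relation is particular to endothelium was not tested.

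Within French bulldogs the r was 0.93 for DLL4, 0.84 for EGFL7, 0.98 for HES4, 0.89 for NOTCH4, 0.83 for NRARP and -0.85 for ITCH, and within the other 7 dogs 0.67, 0.65, 0.82, 0.57, 0.46 and -0.88. Without the 2 dogs farthest from the median of the gene they were 0.78, 0.75, 0.83, 0.74, 0.79 and -0.64. French bulldog 6 was left out of these values. Of its endothelium markers, KDR had 11.04 CPM (counting interval 9.04 to 13.4) and TIE1 1.77 CPM (1.03 to 2.83), below the other libraries, which had at least 21.0 and 4.57. CDH5, at 6.35 CPM (4.86 to 8.16), could not be told from the next library at 6.62, and PECAM1 (98.0 CPM), VWF (75.8) and TEK (16.1) were within the range of the others. It had 11 counts of DLL4, 15 of NOTCH4, 3 of HES4 and 0 of NRARP, the lowest levels of the 18 libraries.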
